A study of Mus musculus with 16 samples.

Results

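The genes described here are 10 members of the circadian clock and of its direct output in the mouse: Per1, Per2, Per3, Dbp, Tef, Hlf, Nr1d1, Nr1d2, Arntl and Clock. They were taken by name, and each was represented by the probe set with the highest mean over all arrays among those that the platform annotation ties to 1 gene symbol. All 10 passed the filter on dim probe sets and stand among the 12369 genes tested. RNA from the lungs of female BALB/c mice was hybridised to Affymetrix mouse arrays with 45101 probe sets, 4 arrays in each of 4 groups. The pregnant TiO2 group held mice at gestation day 14 that received 50 µg of titanium dioxide particles, in 50 µL, through the nose. The pregnant PBS group held mice at the same gestation day given the buffer vehicle. The non-pregnant TiO2 and non-pregnant PBS groups received the same treatments outside pregnancy. All lungs were taken 19 h after a single exposure under light halothane anaesthesia, so the groups share 1 sampling interval; the sources used here do not give the hour of day. The study asked whether pregnancy alters the lung's response to particles that are otherwise close to inert.

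The clock is a transcriptional feedback loop that runs in nearly every cell, the lung's airway cells included. CLOCK and ARNTL (also called BMAL1) bind E-box DNA elements and switch on the Per genes, Nr1d1, Nr1d2 and Dbp; PER proteins, with the CRY proteins, then inhibit CLOCK and ARNTL. NR1D1 and NR1D2, known as REV-ERB receptors, repress Arntl through ROR response elements, and the related factors DBP, TEF and HLF carry the rhythm to output genes through D-box elements. In a cycling tissue the transcripts of Dbp and Nr1d1 swing widely over the day and Arntl runs opposite to them, so a level read at a single time depends on the phase of each animal.

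The elements through which these factors act can be read in the promoters of some members, and 4 stretches are shown because each holds one kind of element. They are from the RefSeq promoter table of GRCm38.p6, which covers 250 bases before a transcription start and 50 after it and holds at least 1 start of 9 of the 10 members; Per2 is not among them. Each is written 5′ to 3′ along the gene's strand, with the element in capitals. The Per1 stretch (chr11:69098699-69098948, plus strand) holds the E-box CACGTG at bases -166 to -161 from the start. The Per3 stretch (chr4:151044666-151044915, minus strand) holds the D-box TTATGTAA at bases -205 to -198 and again at -158 to -151. The Nr1d1 stretch (chr11:98775378-98775627, minus strand) holds AACGTG at bases -28 to -23, the reverse complement of the variant E-box CACGTT. The Arntl window (chr7:113207528-113207557, plus strand) holds a ROR response element at bases 27 to 37 after the second of its starts in the table.
Per1: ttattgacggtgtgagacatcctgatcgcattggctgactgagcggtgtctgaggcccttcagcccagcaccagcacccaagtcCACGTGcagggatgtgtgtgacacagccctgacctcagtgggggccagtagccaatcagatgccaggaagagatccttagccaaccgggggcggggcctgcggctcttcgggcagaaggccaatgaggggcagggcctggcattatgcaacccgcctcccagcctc
Per3: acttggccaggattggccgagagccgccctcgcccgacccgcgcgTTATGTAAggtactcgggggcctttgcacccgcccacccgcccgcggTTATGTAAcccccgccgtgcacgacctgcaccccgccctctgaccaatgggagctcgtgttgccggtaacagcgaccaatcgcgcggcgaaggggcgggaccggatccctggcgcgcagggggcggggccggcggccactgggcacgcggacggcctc
Nr1d1: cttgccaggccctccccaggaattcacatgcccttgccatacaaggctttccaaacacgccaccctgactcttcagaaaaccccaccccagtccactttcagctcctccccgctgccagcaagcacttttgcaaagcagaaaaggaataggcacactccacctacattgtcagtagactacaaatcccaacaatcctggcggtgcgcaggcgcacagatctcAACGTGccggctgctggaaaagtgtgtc
Arntl: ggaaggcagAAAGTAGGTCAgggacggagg
Tef held CACGTG before both of its starts, and the promoters of Dbp, Hlf, Nr1d2 and Clock in the table held none of the elements searched, which says only that these letters are not in those windows. Both strands were searched, and CACGTG is its own reverse complement. Among all 32851 promoters of the table CACGTG was present in 7.15%, CACGTT in 4.68%, a D-box (TTATGTAA or TTACGTAA) in 1.06% and the ROR response element in 0.384%. A match is a description of the sequence; binding was not measured.

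Whole-lung RNA carried the markers of lung on every array. The alveolar type 2 list (4 genes, among them Sftpc) had a mean log2 level between 12.58 and 12.67 on the pregnant TiO2 arrays, 12.65 and 12.70 on the pregnant PBS arrays, 12.63 and 12.67 on the non-pregnant TiO2 arrays, and 12.52 and 12.67 on the non-pregnant PBS arrays. Other tissue differed between arrays. The 7 thymocyte genes averaged 7.83 and 7.98 on non-pregnant PBS replicates 3 and 4, against 5.14 to 5.84 on the other 14 arrays. The 4 squamous keratin genes averaged 5.08 on pregnant TiO2 replicate 2, against 9.25 to 10.80 on all other arrays, and the 5 striated muscle genes 6.10, against 9.03 to 10.08. Labels conflict for non-pregnant PBS replicate 2: its source name calls the mouse pregnant, while its gestation field and the sample list put it in the non-pregnant PBS group, where it was kept. Replicate numbers used here follow the order of the deposited samples within a group and are not given by the labels. The labels do not say whether each array is 1 mouse, so p-values measure the spread between these samples. In whole lung, fewer cells of a type and less RNA per cell cannot be told apart.

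Levels are log2 of the quantile-normalized intensity plus 16, and a change is a difference on that scale, which understates changes of dim genes. A change was called at an adjusted p under 0.05 (limma, Benjamini-Hochberg over all 12369 genes). By this rule 0 of the 10 members changed in any of the 7 comparisons, and 0 differed among the 4 groups in the F-test. For TiO2 minus PBS the share of all genes called was 0% in pregnant mice, 0% in non-pregnant mice, 0% for the difference between these responses and 0% for their average. For pregnant minus non-pregnant it was 1.88% after TiO2, 1.04% after PBS and 4.42% for the average of both, and in the F-test it was 2.23%. At an unadjusted p under 0.05, 2 of 10 members (Per2 and Nr1d1) stood out for TiO2 in non-pregnant mice, beside 9.89% of all genes, and 0 of 10 in pregnant mice, beside 6.43%. The pregnancy comparisons had 1 of 10 (Nr1d1) after TiO2, beside 20.4%, 1 of 10 (Per1) after PBS, beside 11.9%, and 2 of 10 (both of these) on average, beside 19.6%. For the difference between the TiO2 responses it was 1 of 10 (Per2), beside 10.9%, for the TiO2 average 0 of 10, beside 6.2%, and in the F-test 2 of 10, beside 16.9%.

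**Figure D1:**
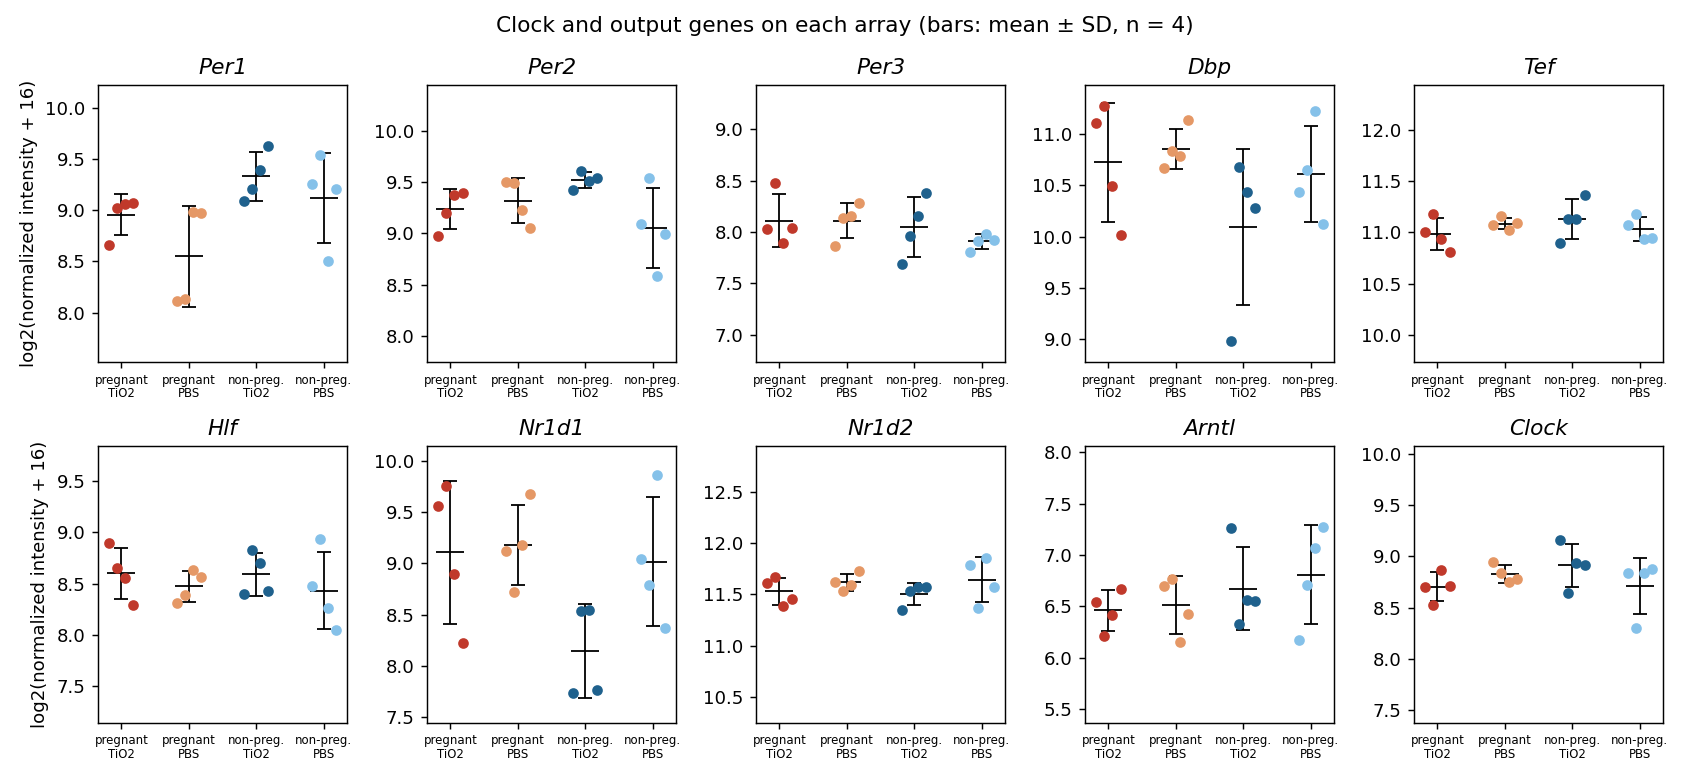
Levels of the 10 clock and output genes on each of the 16 arrays, as log2(normalized intensity + 16), by group, with the mean and SD of 4 arrays; every panel spans the same height in log2 units but starts at a different level. Per1 stands lower on the pregnant than on the non-pregnant TiO2 arrays, Dbp and Nr1d1 spread over more than 2 log2 units, and Tef and Nr1d2 stay within 0.56 and 0.50.

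Among the Per genes, the inhibitory arm of the loop, Per1 gave the smallest adjusted p of any member. Per1, which also responds within the hour to glucocorticoids and other signals, read 8.66, 9.02, 9.06 and 9.07 on the pregnant TiO2 arrays and 8.11, 8.13, 8.98 and 8.97 on the pregnant PBS arrays. It read 9.09, 9.21, 9.39 and 9.63 on the non-pregnant TiO2 arrays and 9.25, 9.53, 8.50 and 9.20 on the non-pregnant PBS arrays. After TiO2 the pregnant arrays all lay below the non-pregnant ones, with 9.07 the highest of the first and 9.09 the lowest of the second, whereas after PBS the groups overlapped through non-pregnant PBS replicate 3, the lowest of its group. The pregnant mean over both exposures was 8.75, against 9.23 in non-pregnant mice, a difference of -0.47 ± 0.16 (SE; 95% interval -0.82 to -0.13) with a limma adjusted p of 0.116. After TiO2 the pregnant minus non-pregnant difference was -0.37 ± 0.23 (limma adjusted p = 0.377), and after PBS it was -0.57 ± 0.23 (limma adjusted p = 0.325). The difference averaged over exposures passed the threshold when non-pregnant PBS replicate 3 was left out (-0.58, limma adjusted p = 0.0286). It also passed without both arrays that carried thymus transcripts (-0.61, limma adjusted p = 0.0352) and without these and pregnant TiO2 replicate 2 (-0.62, limma adjusted p = 0.0392). With 1 array left out at a time this averaged difference ran from -0.58 to -0.40. Of 10 tissue marker lists, 2 moved with Per1 over the 16 arrays at an unadjusted p under 0.05. The 4 fat genes ran opposite to it (r = -0.616, permutation p = 0.0116; rho = -0.70, permutation p = 0.00313), with r = -0.563 without the arrays farthest from the fat median and -0.550 within groups. The 3 endothelial genes ran with it (r = 0.606, permutation p = 0.0134; rho = 0.541, permutation p = 0.0328), with r = 0.509 without the arrays farthest from their median and 0.585 within groups. Adjusted over the 30 relations of these lists with Per1, Nr1d1 and Dbp, 0 had p under 0.05, and the smallest adjusted p was 0.200 by r and 0.0939 by rho. The endothelial sum was 7369 to 9479 on the pregnant TiO2 arrays, 7627 to 8923 on the pregnant PBS arrays, 8248 to 9941 on the non-pregnant TiO2 arrays and 7698 to 8996 on the non-pregnant PBS arrays. The part of this tissue in the Per1 difference was not tested. For TiO2 minus PBS, Per1 differed by 0.41 ± 0.23 in pregnant mice (limma adjusted p = 0.793) and by 0.21 ± 0.23 in non-pregnant mice (limma adjusted p = 0.824).

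Per2, the partner that carries much of the loop's inhibition, was even across the non-pregnant TiO2 arrays and uneven elsewhere. It read 8.97, 9.20, 9.38 and 9.40 on the pregnant TiO2 arrays and 9.50, 9.49, 9.22 and 9.05 on the pregnant PBS arrays. It read 9.42, 9.61, 9.51 and 9.54 on the non-pregnant TiO2 arrays and 9.09, 9.54, 8.58 and 8.99 on the non-pregnant PBS arrays. The TiO2 arrays of non-pregnant mice stood above 3 of the 4 PBS arrays. The exception was non-pregnant PBS replicate 2, whose labels conflict. Replicates 3 and 4 of that PBS group, its lowest for Per2, carried thymus transcripts. The TiO2 minus PBS difference was -0.08 ± 0.16 in pregnant mice (limma adjusted p = 0.939) and 0.47 ± 0.16 in non-pregnant mice (limma adjusted p = 0.370). The difference between these responses, -0.55 ± 0.23, had a limma adjusted p of 0.419. With 1 array left out at a time, Per2 gave 0.31 to 0.63 for TiO2 in non-pregnant mice and -0.71 to -0.39 for that difference. Its other kept probe sets differed from each other: one followed the chosen set (r = 0.805) and gave 0.68 for TiO2 in non-pregnant mice and -0.74 for the difference between responses, and the other did not (r = 0.06) and gave 0.07 and -0.03. After TiO2 the pregnant arrays again lay below all non-pregnant ones, with 9.40 against 9.42 where they come closest, and the means differed by -0.28 ± 0.16 (limma adjusted p = 0.342). Per1 and Per2 were the 2 of 10 members whose groups did not overlap in that comparison, beside 15.7% of all genes. In the other 3 comparisons of 2 groups, 0 of 10 members separated, beside 4.22% of all genes for TiO2 in pregnant mice, 5.2% for TiO2 in non-pregnant mice and 5.76% for pregnancy after PBS. Per3, the paralogue least needed for the rhythm itself, averaged 8.11 ± 0.26 and 8.11 ± 0.17 in the pregnant TiO2 and pregnant PBS groups, and 8.05 ± 0.29 and 7.91 ± 0.07 in the non-pregnant TiO2 and non-pregnant PBS groups (SD, n = 4 each). The groups overlapped for Per3 in each of the 4 comparisons of 2 groups, and its 3 other kept probe sets had r from 0.414 to 0.593 with the chosen one.

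Of the output factors that bind D-boxes, Dbp was the most variable from array to array, and its range was the widest of all members. Dbp read 11.11, 11.28, 10.49 and 10.02 on the pregnant TiO2 arrays and 10.67, 10.83, 10.78 and 11.13 on the pregnant PBS arrays. It read 8.98, 10.68, 10.44 and 10.28 on the non-pregnant TiO2 arrays and 10.43, 10.64, 11.23 and 10.12 on the non-pregnant PBS arrays. Pregnant PBS mice formed a tight set, the non-pregnant TiO2 group held 1 array far below all others, and all 4 groups overlapped. The highest and lowest arrays differed by 2.30 log2 units, or 4.91-fold. The TiO2 minus PBS difference was -0.13 ± 0.34 in pregnant mice (limma adjusted p = 0.949) and -0.51 ± 0.34 in non-pregnant mice (limma adjusted p = 0.641). Pregnant minus non-pregnant was 0.63 ± 0.34 after TiO2 (limma adjusted p = 0.309) and 0.44 ± 0.24 on average over exposures (limma adjusted p = 0.335). Without non-pregnant PBS replicate 3 the TiO2 minus PBS difference in non-pregnant mice was -0.30. Without non-pregnant TiO2 replicate 1, the low array, it was -0.14 (limma adjusted p = 0.943), and pregnant minus non-pregnant was 0.26 after TiO2 (limma adjusted p = 0.681) and 0.25 on average.

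Tef, a D-box factor with a shallower rhythm, was among the steadiest members. Its means were 10.98 ± 0.16 and 11.08 ± 0.06 in the pregnant TiO2 and pregnant PBS groups, and 11.13 ± 0.19 and 11.03 ± 0.11 in the non-pregnant TiO2 and non-pregnant PBS groups (SD, n = 4 each). Hlf, which as a protein can pair with DBP and TEF, averaged 8.60 ± 0.25 and 8.47 ± 0.15 in the pregnant TiO2 and pregnant PBS groups, and 8.59 ± 0.21 and 8.43 ± 0.38 in the non-pregnant TiO2 and non-pregnant PBS groups (SD, n = 4 each). Neither gene had groups that separated in any comparison of 2 groups. The 2 other kept probe sets of Tef tracked the chosen one poorly (r = 0.16 and 0.07), and the other set of Hlf had r = 0.557.

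Nr1d1, the receptor that represses Arntl, gave the largest differences between groups of all members. It read 9.56, 9.75, 8.89 and 8.22 on the pregnant TiO2 arrays and 9.12, 8.72, 9.18 and 9.67 on the pregnant PBS arrays. It read 7.73, 8.53, 8.54 and 7.76 on the non-pregnant TiO2 arrays and 9.04, 8.79, 9.86 and 8.37 on the non-pregnant PBS arrays. The non-pregnant TiO2 group was the low one, and it overlapped the pregnant TiO2 group through 1 pregnant array at 8.22 and the non-pregnant PBS group through 1 array at 8.37. The TiO2 minus PBS difference was -0.07 ± 0.35 in pregnant mice (limma adjusted p = 0.974) and -0.87 ± 0.35 in non-pregnant mice (limma adjusted p = 0.413). The difference between these responses was 0.81 ± 0.49 (95% interval -0.24 to 1.86) with a limma adjusted p of 0.566, so the data do not show that the responses differed. Pregnant minus non-pregnant was 0.96 ± 0.35 after TiO2 (limma adjusted p = 0.146), a 1.95-fold higher level, and 0.56 ± 0.25 on average over exposures (limma adjusted p = 0.223).

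Beside the low Nr1d1 group, tissue next to the lung differed too. Summed intensities of 4 fat genes were 2064 to 10563 on the pregnant TiO2 arrays, 4238 to 10702 on the pregnant PBS arrays, 1218 to 5883 on the non-pregnant TiO2 arrays and 5352 to 11064 on the non-pregnant PBS arrays. Glycam1, a gene of lymph node venules, read 4.14 and 4.60 on non-pregnant TiO2 replicates 1 and 4, the arrays where Nr1d1 was lowest. It read 4.15 on pregnant TiO2 replicate 2, where Nr1d1 was the highest of its group. Over the 16 arrays the fat list had r = 0.464 with Nr1d1 (permutation p = 0.0705; rho = 0.485, permutation p = 0.0594), r = 0.02 without the arrays farthest from the fat median, non-pregnant TiO2 replicates 1 and 4, and 0.08 within groups. The venule list, Glycam1 and Madcam1, had r = 0.408 with Nr1d1 (permutation p = 0.116; rho = 0.379, permutation p = 0.147), r = 0.684 without the arrays farthest from its median and 0.06 within groups. A list of the lung itself, 3 alveolar type 1 genes, had r = 0.479 with Nr1d1 (permutation p = 0.0607). Its rho was 0.521 (permutation p = 0.0401). Its r was 0.482 without the arrays farthest from its median and 0.453 within groups. The part of these tissues in the Nr1d1 difference was not tested.

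Nr1d2, the second REV-ERB receptor, stayed within 0.50 log2 units over all 16 arrays. It averaged 11.53 ± 0.13 and 11.62 ± 0.08 in the pregnant TiO2 and pregnant PBS groups, and 11.51 ± 0.11 and 11.64 ± 0.22 in the non-pregnant TiO2 and non-pregnant PBS groups (SD, n = 4 each). Its other kept probe set ran against the chosen one over the arrays (Pearson r = -0.75), so directions for Nr1d2 hold for 1 probe set only.

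Of the activators, Arntl encodes the obligate partner of CLOCK. It read 6.54, 6.21, 6.42 and 6.67 on the pregnant TiO2 arrays and 6.70, 6.77, 6.15 and 6.43 on the pregnant PBS arrays. It read 7.26, 6.32, 6.56 and 6.55 on the non-pregnant TiO2 arrays and 6.17, 6.71, 7.07 and 7.28 on the non-pregnant PBS arrays. The highest 3 arrays were all non-pregnant, and the groups overlapped. With a mean of 6.61, the chosen probe set of Arntl was the dimmest of those chosen for the members. Its other probe set failed the filter and did not follow it (Pearson r = -0.07), so values and relations of Arntl rest on 1 dim probe set. Pregnant minus non-pregnant was -0.25 ± 0.16 on average over exposures (limma adjusted p = 0.415) and -0.29 ± 0.23 after PBS (limma adjusted p = 0.692), a difference that was 0.07 without the non-pregnant PBS arrays that carried thymus transcripts. Clock averaged 8.70 ± 0.14 and 8.83 ± 0.09 in the pregnant TiO2 and pregnant PBS groups, and 8.91 ± 0.21 and 8.71 ± 0.28 in the non-pregnant TiO2 and non-pregnant PBS groups (SD, n = 4 each). Its 3 other probe sets tracked the chosen one poorly (Pearson r from -0.21 to 0.15).

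**Figure D2:**
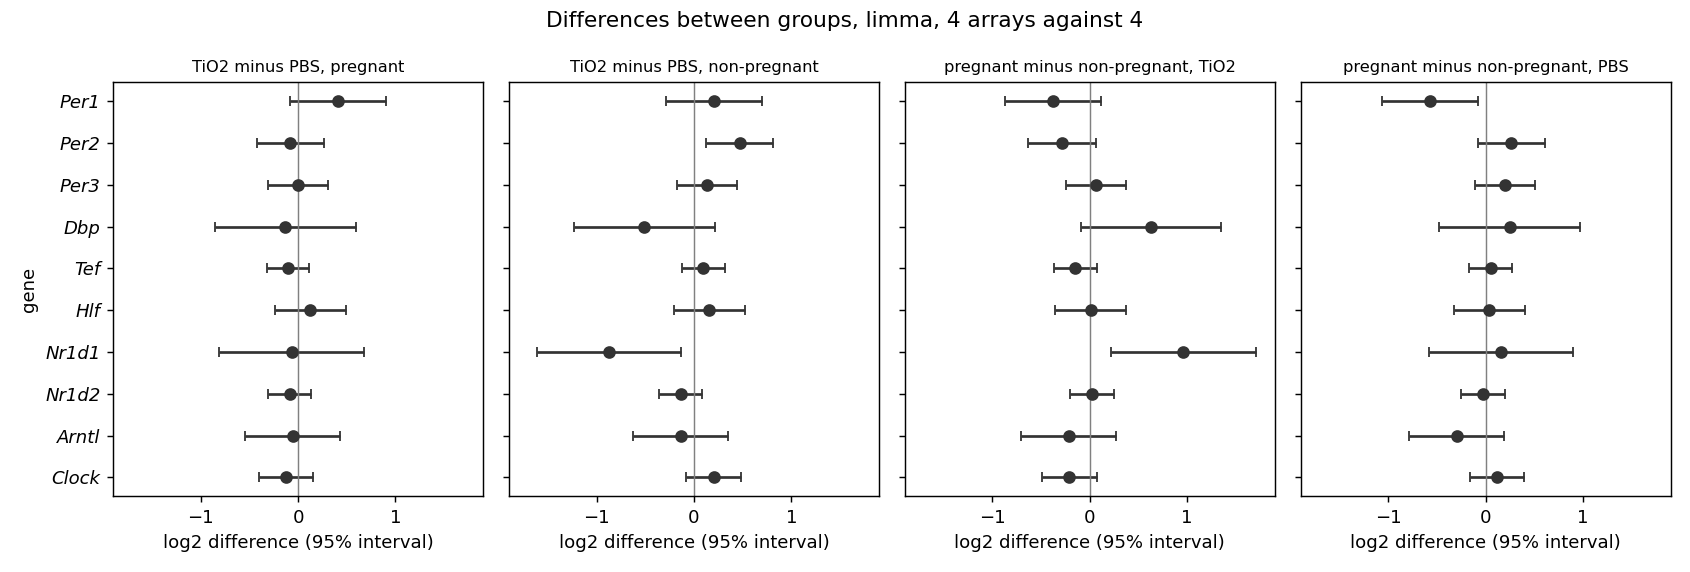
Differences between groups for the 10 genes on the log2 scale, with 95% intervals from limma, in 4 comparisons of 4 arrays with 4. Intervals leave out 0 for Per2 and Nr1d1 in the TiO2 comparison of non-pregnant mice, for Nr1d1 in the pregnancy comparison after TiO2 and for Per1 in that after PBS, before any adjustment over genes.

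The spread within groups, pooled over the 4 groups, differed between members. Its SD was 0.557 log2 units for Nr1d1, larger than for 98% of all genes, and 0.541 for Dbp, larger than for 97.8%. Per1 had 0.364 (93.2% of genes lower) and Arntl 0.359 (92.9% lower). At the other end stood Tef with 0.139 (29.9% lower) and Nr1d2 with 0.146 (33.8% lower), below the median of all genes of 0.175. The spread within groups made up 57.1% of the total sum of squares for Nr1d1, 72.6% for Dbp, 54.8% for Per1 and 83.8% for Arntl. With 4 group means fitted to 16 arrays and 12 residual degrees of freedom, most of the sum would lie within groups without any group difference. Arrays of 1 group differed by up to 1.53 log2 units for Nr1d1, in the pregnant TiO2 group, and by up to 1.70 for Dbp, in the non-pregnant TiO2 group.

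**Figure D3:**
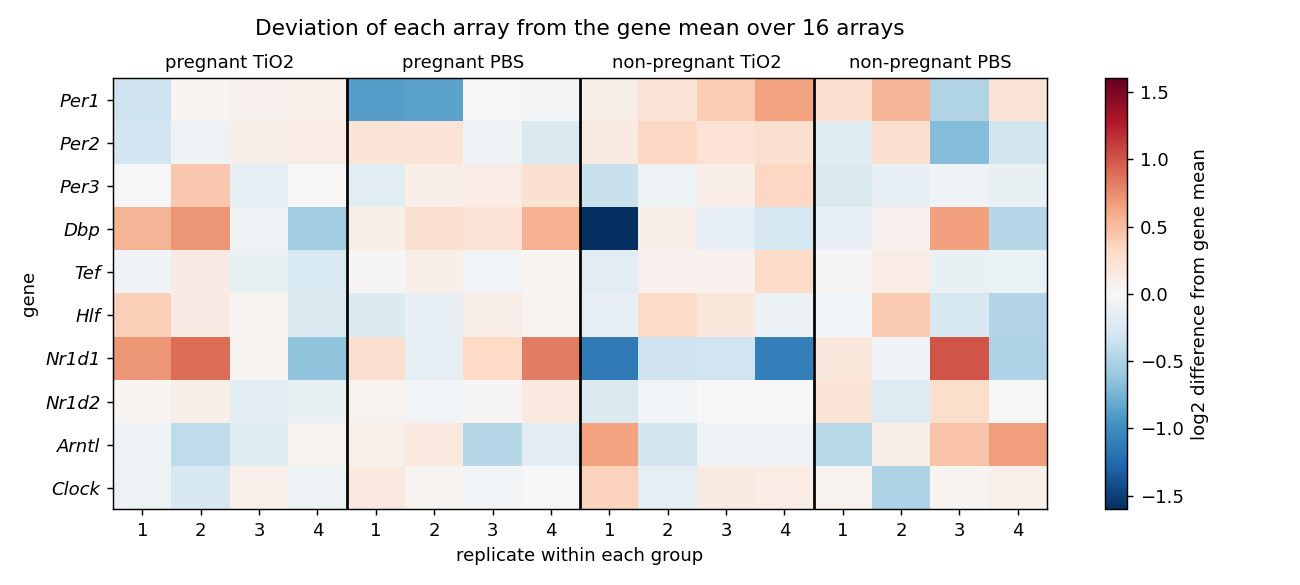
Deviation of each array from the gene's mean over 16 arrays, in log2 units, for the 10 genes by group and replicate. The rows of Dbp and Nr1d1 take the same colours on most arrays, both red on pregnant TiO2 replicate 2 and non-pregnant PBS replicate 3 and both blue on non-pregnant TiO2 replicate 1.

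Dbp and Nr1d1, both E-box targets of CLOCK and ARNTL, varied together across the 16 arrays. Pearson's r was 0.861, with a permutation p of 1e-05, the smallest that the resampling could give, and an adjusted p of 9.0e-05 over the 9 relations of Dbp with the other members. Spearman's rho was 0.865 (permutation p = 5e-05). Leaving out the arrays farthest from the median of Dbp, non-pregnant TiO2 replicate 1 and pregnant TiO2 replicate 4, gave r = 0.869, and removing the group means gave r = 0.814. This family of relations was computed after the values had been seen. The second relation to pass by Pearson's r, that of Dbp with Nr1d2 (r = 0.611, permutation p = 0.0110, adjusted p = 0.0496), missed by rank (rho = 0.579, adjusted permutation p = 0.0606) and had r = 0.422 without the arrays farthest from the median of Dbp. It also missed after scaling to a common trimmed mean (adjusted permutation p = 0.0918) and without the 3 arrays of unlike tissue content (adjusted permutation p = 0.168). A second probe set of Dbp followed the chosen one with r = 0.951, while Nr1d1 has a single probe set.

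The 9 relations of Arntl with the other members gave 0 with an adjusted p under 0.05. Its r was -0.490 with Dbp (permutation p = 0.0535, adjusted p = 0.238) and -0.363 with Nr1d1 (permutation p = 0.167, adjusted p = 0.251). Without the arrays farthest from the median of Arntl, non-pregnant PBS replicate 4 and non-pregnant TiO2 replicate 1, these were 0.04 and -0.03. Without non-pregnant TiO2 replicate 1 alone r was -0.21 with Dbp and -0.18 with Nr1d1, and without non-pregnant PBS replicate 4 alone it was -0.45 and -0.31. Without the 3 arrays of unlike tissue content, non-pregnant PBS replicate 4 among them, r was -0.644 with Dbp (permutation p = 0.0317, adjusted p = 0.143) and -0.532 with Nr1d1 (permutation p = 0.0607, adjusted p = 0.182). The strongest of its 9 relations was with Hlf, at r = -0.573 (permutation p = 0.0211, adjusted p = 0.189). Its rho with Hlf was -0.556 (permutation p = 0.0273, adjusted p = 0.246). With Hlf, r was -0.388 without the arrays farthest from the median of Arntl and -0.297 without the 3 arrays of unlike tissue content.

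Among the other 12368 genes, the 5 whose levels followed Dbp most closely over the 16 arrays were Pigq (r = 0.909), Slc7a7 (0.896), Nr1d1 (0.861), Gstt2 (0.861) and Tiam1 (0.854). The 5 that ran most opposite were Cdkn1a (-0.919), Hspa1b (-0.896), Boc (-0.855), Herpud2 (-0.854) and Lyve1 (-0.847). Cdkn1a encodes the cell-cycle inhibitor p21, and Hspa1b an inducible heat-shock protein. Cdkn1a was highest, at 11.16, on non-pregnant TiO2 replicate 1, the array where Dbp was lowest. It was lowest, at 9.59, on pregnant TiO2 replicate 2, the array where Dbp was highest. For Arntl the closest were Hmgn5 (0.928), Etaa1 (0.888), Smc4 (0.798), Cct3 (0.787) and Cep85 (0.765), and the most opposite Ddah1 (-0.815), Igfbp5 (-0.814), Pigyl (-0.803), Slc7a2 (-0.769) and P2rx4 (-0.755). These are the extremes of a ranking of all genes and are given as a description.

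**Figure D4:**
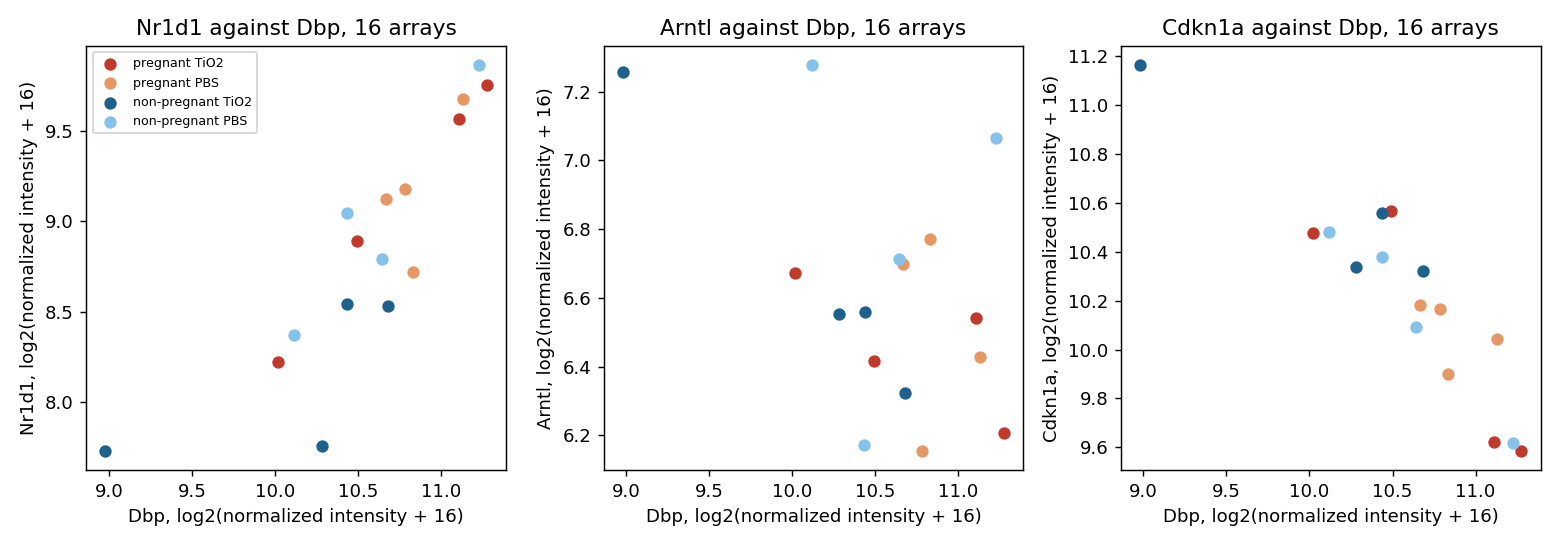
Levels of Nr1d1, Arntl and Cdkn1a against Dbp on the 16 arrays, each as log2(normalized intensity + 16), coloured by group. Nr1d1 climbs with Dbp (r = 0.861) and Cdkn1a descends (r = -0.919), while Arntl scatters (r = -0.490).

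The rest of the clock was described from lists chosen by function, with earlier results of these data known. Of 12 other loop genes 8 were measured (Cry1, Cry2, Rora, Nfil3, Bhlhe40, Ciart, Cipc and Timeless), of 8 genes that modify clock proteins 6, and of 10 clock-controlled outputs 9. None of the 3 lists held a gene with an adjusted p under 0.05 in any of the 7 limma comparisons; at an unadjusted p under 0.05 the pregnancy difference averaged over exposures had 2 of 8 loop genes, 0 of 6 modifiers and 3 of 9 outputs, beside 19.6% of all genes. The median pregnancy difference was -0.03 for the loop genes, -0.02 for the modifiers and 0.02 for the outputs, against 0.01 for all genes. On average over exposures the loop genes with the smallest p were Bhlhe40, a repressor at E-boxes (0.20 ± 0.09, limma adjusted p = 0.201), Cry2, a partner of the PER proteins (-0.15 ± 0.07, limma adjusted p = 0.240) and Nfil3, a repressor at D-boxes (0.33 ± 0.17, limma adjusted p = 0.300). Over the 7 comparisons the smallest unadjusted p of a loop gene was that of Nfil3 for pregnancy after PBS (0.63 ± 0.24, limma adjusted p = 0.295). Csnk1d, the casein kinase that phosphorylates PER proteins, had the smallest p of the modifiers over the 7 comparisons, with -0.35 ± 0.11 for pregnancy after TiO2 (limma adjusted p = 0.0973). The outputs nearest the threshold on average over exposures were Tsc22d3, also called GILZ (-0.56 ± 0.16, limma adjusted p = 0.0561), Klf10 (0.24 ± 0.08, limma adjusted p = 0.105) and the cell-cycle kinase gene Wee1 (-0.29 ± 0.10, limma adjusted p = 0.127). Without the 2 arrays that carried thymus transcripts 3 of these genes passed in that comparison: Tsc22d3 (-0.68, limma adjusted p = 0.00484), Wee1 (-0.35, limma adjusted p = 0.0258) and Nfil3 (0.55, limma adjusted p = 0.0296). Of the thymus arrays, leaving out non-pregnant PBS replicate 3 alone was enough for Tsc22d3 (-0.70, limma adjusted p = 0.00164) and Wee1 (-0.37, limma adjusted p = 0.0117). Tsc22d3 also passed without pregnant TiO2 replicate 3 (limma adjusted p = 0.0476), Klf10 without pregnant TiO2 replicate 1 (limma adjusted p = 0.0209), and Csnk1d, in its comparison, without non-pregnant PBS replicate 2 (limma adjusted p = 0.0387). On average over exposures Tsc22d3 missed the threshold in 19 of 24 alternatives, Wee1 in 21, Nfil3 in 22 and Klf10 in 23. Csnk1d missed it in 23 of 25 for pregnancy after TiO2. Nfil3 was dim and uneven in the non-pregnant PBS group, at 5.60 ± 0.65 (SD, n = 4) with a lowest array of 4.78. Over the alternative settings the number of all genes called ran from 102 to 1074 on average over exposures. For pregnancy after TiO2 it ran from 21 to 483.

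Per1 is also a target of glucocorticoids and is induced as an immediate-early gene in many cells, so both classes were set beside it. Both lists were chosen with earlier results of these data known, so their counts are a description and not a test of the lists. Of 10 glucocorticoid targets, all measured, 2 were lower in pregnant mice on average over exposures and 0 higher, beside 4.42% of all genes called. Ddit4, an inhibitor of mTOR signalling, averaged 9.02 ± 0.40 and 8.72 ± 0.74 in the pregnant TiO2 and pregnant PBS groups, and 10.25 ± 0.38 and 10.01 ± 0.67 in the non-pregnant TiO2 and non-pregnant PBS groups (SD, n = 4 each), and it fell by 1.26 ± 0.25 (SE, limma adjusted p = 0.0100). Errfi1, a feedback inhibitor of the EGF receptor, fell by 0.70 ± 0.16 (SE, limma adjusted p = 0.0226). Klf9 is a transcription factor induced by glucocorticoids. After TiO2 it averaged 11.96 ± 0.05 in pregnant mice and 12.29 ± 0.06 in non-pregnant mice (SD, n = 4 each). The pregnant level was lower by 0.33 ± 0.08 (SE, limma adjusted p = 0.0491). After PBS the Klf9 means were close, at 12.02 ± 0.10 and 12.03 ± 0.14 (SD, n = 4 each). In non-pregnant mice its TiO2 minus PBS difference was 0.265 ± 0.081 (SE, limma adjusted p = 0.311). Klf9 was the 1 gene of the list called for pregnancy after TiO2, beside 1.88% of all genes. After PBS 0 were called, beside 1.04%, and 3 of 10 had an unadjusted p under 0.05, beside 11.9%. Klf9 sat at the threshold and missed it in 18 of 25 alternative settings, with limma adjusted p-values from 0.0181 to 0.867. On average over exposures Ddit4 passed in all 24 alternatives, and Errfi1 in 22, missing without pregnant PBS replicate 1 (limma adjusted p = 0.0501) and without pregnant TiO2 replicate 1 (limma adjusted p = 0.0505). The number of these targets called on average was 4 without the arrays that carried thymus transcripts and 4 without non-pregnant PBS replicate 3 alone. The number of all genes called in that comparison also moved, from 102 to 1074 over the settings, with 547 as reported. The list's median pregnancy difference was -0.24 on average over exposures, against 0.01 for all genes. After TiO2 it was -0.43, against 0.03, with 0 genes above 0 and 10 below. After PBS it was only -0.04, against 0.007, with 4 genes above 0 and 6 below. Outside pregnancy the list's median response to TiO2 was 0.38, against -0.02 for all genes, with 9 genes above 0 and 1 below. During pregnancy that median was -0.05, with 3 genes above 0 and 7 below. The source of this contrast was not tested. Tsc22d3 is in this list and in that of clock outputs.

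Immediate-early genes were mostly higher in pregnant mice. All 8 were measured, and on average over exposures 5 rose in pregnant mice and 0 fell, beside 4.42% of all genes called. The list was chosen with earlier results known, so this count is a description. Nr4a1, an orphan nuclear receptor, averaged 9.54 ± 0.45 and 9.66 ± 0.17 in the pregnant TiO2 and pregnant PBS groups, and 8.28 ± 0.05 and 8.32 ± 0.18 in the non-pregnant TiO2 and non-pregnant PBS groups (SD, n = 4 each). Its rise was 1.26 ± 0.17 after TiO2 (limma adjusted p = 0.00343) and 1.33 ± 0.17 after PBS (limma adjusted p = 0.00143). Junb (0.46 ± 0.08), Atf3 (0.68 ± 0.14), Egr1 (0.41 ± 0.09) and Ier2 (0.50 ± 0.12) rose on average over exposures, with limma adjusted p-values between 0.00268 and 0.0303. Nr4a1 and Atf3 passed in all 24 alternatives, Junb and Egr1 in 23, missing without scaling between arrays, and Ier2 in 12. The list's median was 0.43, against 0.01 for all genes, with 7 of the 8 genes above 0 and 1 below. Of the 8 genes, 2 (Nr4a1 and Junb) were called for pregnancy after TiO2, beside 1.88% of all genes. After PBS 1 (Nr4a1) was called, beside 1.04%. At an unadjusted p under 0.05 (limma) all 8 differed after PBS, beside 11.9% of all genes, with 7 higher in pregnant mice and 1 lower. Junb differed by 0.47 after TiO2 (limma adjusted p = 0.0340) and missed the threshold in 10 of 25 alternatives. For TiO2 minus PBS, 0 genes of either list were called in pregnant or in non-pregnant mice; at an unadjusted p under 0.05 there were 0 in pregnant mice, beside 6.43% of all genes, and in non-pregnant mice 2 of 10 glucocorticoid targets and 1 of 8 immediate-early genes, beside 9.89%.

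**Figure D5:**
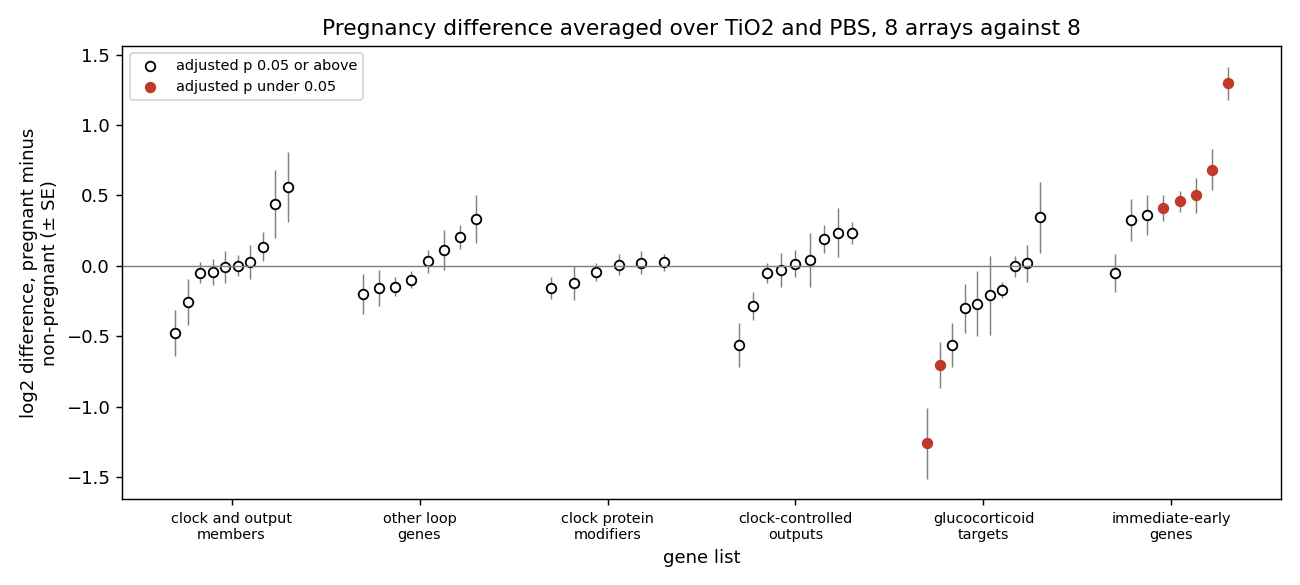
Pregnant minus non-pregnant difference averaged over TiO2 and PBS, on the log2 scale with its SE, for the members and 5 related gene lists, ordered by size within a list. Filled red points are called by limma: 2 glucocorticoid targets below 0 and 5 immediate-early genes above it, with none among the members, other loop genes, modifiers and outputs.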

How the data were processed

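Intensities for 45101 probe sets on 16 arrays were used as deposited. The tools named, per the submitters' processing notes, are GCOS, MAS5 and RMA; the one that made the deposited values is not given in the sources used here. Deposited intensity values are linear and not scaled between arrays, with trimmed means from 137 to 264 (2% off each end), so the 64 control probe sets were left out and the arrays were quantile-normalized before log2(value + 16) was taken. Probe sets brighter than the array median on 4 or more arrays were kept (23995). Arrays give no counts, so the number of arrays limits precision. Symbols came from the platform annotation, updated by Entrez identifier to RefSeq GRCm38.p6, and 1 probe set stood for each gene (highest mean). The members have 26 single-symbol probe sets, of which 23 passed the filter.

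One limma 3.58.1 fit (lmFit, eBayes; R 4.3.3) of 4 group means on 12 residual degrees of freedom gave 7 contrasts and an F-test, with Benjamini-Hochberg adjustment over genes. Correlations used two-sided permutation tests with 100000 resamples (numpy 2.4.6), adjusted within a family of 9 for members and over 30 relations for the tissue marker lists. The fit was tested on simulated data. Members and lists were chosen with earlier results of these data known. All members are named; of other lists, called genes, or else up to 3 with the smallest p, are named. Contrasts sharing a group share its arrays. Alternatives covered scaling, pseudocount, filter, probe set, eBayes options, the arrays fitted, and omitted arrays.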

Additional observations from a re-analysis of the deposited data

Results flagged for a closer look

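Among the 40 sets of 4 arrays (10 genes in 4 groups), 2 held an array that stood apart from its group by Dixon's criterion, and chance alone gives about 1 in 20. Per1 on pregnant TiO2 replicate 1 was 8.66, with the nearest array of that group at 9.02. Clock on non-pregnant PBS replicate 2, the array with conflicting labels, was 8.30, with the nearest array of that group at 8.83.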

How the results depend on the processing

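The number of members called stayed 0 in all alternatives for 7 of the 8 tests. For the pregnancy average it was 1 (Per1) without the thymus-bearing arrays, 1 without the 3 arrays of unlike tissue content, and 0 to 1 with 1 array left out at a time; there the number over all genes ran from 102 to 1074. Of 1769 alternative values for the 70 changes of members, 1620 kept their sign with no call, 3 (Per1) were called and 146 turned their sign. The cause was not tested. Without scaling, the median of all genes shifted by 0.18 for TiO2 minus PBS in non-pregnant mice, -0.27 for the difference between TiO2 responses, 0.16 for pregnancy after PBS and -0.11 for pregnancy after TiO2. No paired analysis was possible because the labels give no replicate numbers.

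Without scaling between arrays the log2 difference turned in TiO2 minus PBS in non-pregnant mice to 0.011 for Arntl and 0.042 for Nr1d2, in the difference between TiO2 responses to -0.18 for Arntl, -0.18 for Nr1d2 and -0.093 for Per1, in pregnancy after PBS to 0.12 for Nr1d2, in pregnancy after TiO2 to -0.10 for Hlf, -0.058 for Nr1d2 and -0.042 for Per3, in the TiO2 average to 0.056 for Tef, in the pregnancy average to 0.033 for Nr1d2, 0.025 for Per2 and 0.0018 for Tef. The probe set with the second highest mean, which 7 members have, turned it in TiO2 minus PBS in pregnant mice to 0.038 for Dbp, -0.042 for Hlf, 0.047 for Per2 and 0.014 for Tef, in TiO2 minus PBS in non-pregnant mice to -0.12 for Clock, 0.47 for Nr1d2 and -0.12 for Per3, in the difference between TiO2 responses to -0.57 for Nr1d2, in pregnancy after PBS to -0.068 for Clock, -0.061 for Hlf, 0.15 for Nr1d2 and -0.026 for Per3, in pregnancy after TiO2 to -0.13 for Hlf, -0.41 for Nr1d2 and -0.15 for Per3, in the TiO2 average to -0.13 for Clock, -0.0078 for Hlf, 0.19 for Nr1d2, -0.18 for Per3 and 0.32 for Tef, in the pregnancy average to -0.096 for Hlf and -0.086 for Per3. A pseudocount of 64 gave 0.00090 for Per3 in TiO2 minus PBS in pregnant mice. Scaling to a common trimmed mean turned it in TiO2 minus PBS in pregnant mice to 0.00053 for Per3, in pregnancy after TiO2 to -0.0013 for Hlf, in the pregnancy average to 2.7e-05 for Nr1d2.

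Leaving out the thymus-bearing arrays, or these and pregnant TiO2 replicate 2, turned it in TiO2 minus PBS in non-pregnant mice to 0.23 for Arntl, -0.12 for Hlf and -0.065 for Per1, in pregnancy after PBS to 0.071 for Arntl, -0.23 for Hlf, 0.042 for Nr1d2 and -0.040 for Tef. Leaving out the thymus-bearing arrays alone turned it in the difference between TiO2 responses to -0.29 for Arntl, 0.24 for Hlf and -0.018 for Nr1d2, in the TiO2 average to 0.089 for Arntl, in the pregnancy average to 0.025 for Clock, -0.11 for Hlf and 0.034 for Nr1d2. Leaving out all 3 turned it in TiO2 minus PBS in pregnant mice to 0.030 for Arntl, in the difference between TiO2 responses to -0.20 for Arntl, 0.23 for Hlf and -0.065 for Nr1d2, in pregnancy after TiO2 to -0.0091 for Hlf, -0.023 for Nr1d2 and -0.056 for Per3, in the TiO2 average to 0.13 for Arntl and -0.0043 for Hlf, in the pregnancy average to 0.054 for Clock, -0.12 for Hlf and 0.0098 for Nr1d2. With 1 array left out at a time, differences that kept their sign but could move by over 1.5 times included Per1 for TiO2 minus PBS in pregnant mice (0.26 to 0.55), Nr1d1 for the difference between TiO2 responses (0.53 to 1.10), and Arntl for pregnancy after PBS (-0.51 to -0.14) and for the pregnancy average (-0.36 to -0.16). Likewise, the lowest and highest values lay on both sides of 0 for these members. For TiO2 minus PBS in pregnant mice, it was -0.17 to 0.032 for Arntl, -0.17 to 0.0068 for Per2, -0.12 to 0.073 for Per3, -0.28 to 0.23 for Nr1d1 and -0.31 to 0.11 for Dbp. For pregnancy after PBS, it was -0.12 to 0.044 for Nr1d2, -0.021 to 0.17 for Clock, -0.087 to 0.21 for Hlf and -0.059 to 0.44 for Nr1d1. For the TiO2 average, it was -0.041 to 0.037 for Tef and -0.030 to 0.084 for Clock. For the pregnancy average, it was -0.047 to 0.034 for Nr1d2, -0.086 to 0.072 for Per2 and -0.039 to 0.11 for Hlf. For the difference between TiO2 responses, it was -0.020 to 0.14 for Nr1d2, -0.077 to 0.29 for Arntl and -0.20 to 0.095 for Hlf. For pregnancy after TiO2, it was -0.092 to 0.11 for Hlf, -0.028 to 0.072 for Nr1d2 and -0.056 to 0.18 for Per3. For TiO2 minus PBS in non-pregnant mice, it was -0.0014 to 0.34 for Per1 and -0.35 to 0.023 for Arntl.

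Of the relations across arrays, without scaling Arntl had r of 0.10 with Per1, 0.28 with Per2, 0.25 with Per3, 0.36 with Tef and 0.41 with Nr1d2, and Dbp had 0.13 with Clock; without the 3 arrays of unlike tissue content Arntl had 0.37 with Per2. The number that passed for Arntl was 1 (Clock) without scaling. For Dbp it was 5 without scaling, 1 with the trimmed mean and 1 without the 3 arrays, with 2 as reported.

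Counts for the related lists were repeated under these alternatives after the values had been seen, and the following ones moved by over 1.5 times. Of glucocorticoid targets called for pregnancy after TiO2 (1 as reported), there were 0 without scaling, with the trimmed mean, with a pseudocount of 1 or with no filter, 3 without the thymus-bearing arrays, 2 without all 3 arrays, 4 with only the arrays of the groups compared, and 0 to 3 with 1 array left out. After PBS (0 as reported) there was 1 without all 3 arrays, and 0 to 2 with 1 left out; for the average (2 as reported) there were 4 without the thymus-bearing arrays, 4 without all 3, and 1 to 4 with 1 left out. Of immediate-early genes called after TiO2 (2 as reported), there was 1 without scaling or with no filter, and 1 to 3 with 1 left out. After PBS (1 as reported) there were 2 with a pseudocount of 64, with trend and robust eBayes or without the thymus-bearing arrays, 3 without all 3, and 1 to 3 with 1 left out; for the average (5 as reported) there were 2 without scaling. Of clock outputs (0 as reported in each), there was 1 after TiO2 without the thymus-bearing arrays, without all 3 or with only the arrays compared, and 0 to 1 with 1 left out; after PBS 0 to 1 with 1 left out; and for the average 1 with a pseudocount of 64, 2 without the thymus-bearing arrays or all 3, and 0 to 2 with 1 left out. Of loop genes (0 as reported) there was 1 after PBS and 1 for the average without the thymus-bearing arrays or all 3. Of clock protein modifiers (0 as reported) there was 1 after TiO2 with only the arrays compared, and 0 to 1 with 1 left out. Over the settings the number of all genes called moved as well. It ran from 21 to 483 for pregnancy after TiO2, 38 to 295 after PBS and 102 to 1074 for the average. Of the 18 changes named for list genes, 0 turned their sign.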
